A study of Mus musculus with 8 samples.

Results

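Ribosomal proteins assemble with ribosomal RNA into the small (40S) and the large (60S) subunit of the cytoplasmic ribosome. Their genes were taken by symbol: symbols starting with Rps, Rpl or Rplp and a digit, and Rpsa, without the Rps6k kinases and without 6 pseudogene symbols. This gave 84 of the 19591 genes listed in the series, 34 with a small subunit symbol and 50 with a large subunit symbol. The bulk table held 79 of them, each single-cell plate between 80 and 82, and 75 had a row in all 7 tables. The symbol rule also took Rps19bp1, whose product binds a ribosomal protein and is not one itself. Rps27, Rpl26, Rplp2 and Rpl3l were not analysed here.

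All animals were C57BL/6 mice carrying Troy-EGFP-IRES-CreERT2, in which a reporter and an inducible Cre replace the coding region of Troy (Tnfrsf19), so no group stood for wild-type skin. Bulk mRNA came from the adult epidermis of 2 mice, each sorted into viable cells (DAPI-), ITGA6bright EGFP+ cells and ITGA6bright EGFP- cells. ITGA6 is an integrin by which basal cells hold on to the basement membrane, and EGFP reported Troy. Single cells came from 4 further adult knockin mice (knockin plates, EGFP+ and EGFP- cells) and from 2 adult mice that also carried Rosa26-LSL-tdTomato (traced plates, tdTomato+ and tdTomato- cells). The traced mice were homozygous for both alleles and received tamoxifen 7 days before collection. Each plate held cells of 1 mouse in 384 wells, and the gate of each well was not used here.

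Every cell needs ribosomes, so these genes are among the most abundant in any cell. Rplp0 and Rplp1 encode proteins of the stalk of the large subunit, where elongation factors bind. Many of these mRNAs start with a run of pyrimidines, through which the growth-sensing mTORC1 pathway controls their translation. In the epidermis, basal keratinocytes divide on the basement membrane and make Krt5 and Krt14, and committed cells above them make Krt1 and Krt10. The hair follicle joins this epidermis, and its lower part holds the bulge, a store of mostly resting stem cells.

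RefSeq promoter windows (GRCm38.p6) matched 62 of the 84 members. A run of at least 7 bases of C or T on the sense strand that touched the 3 bases before or after the annotated start was found in 24 of them (38.7%), against 3352 of 27025 genes (12.4%). A run lying wholly within the stretch from 10 bases before to 20 bases after the start was found in 26 members (41.9%) and 17.4% of genes. The stretches below are shown for members that the results turn on and for 2 of the 10 most abundant in bulk, with the run in capitals and 10 bases before the start.
Rplp0, chr5:115559457-115559486, plus strand: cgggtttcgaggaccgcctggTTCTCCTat
Rps12, chr10:23787190-23787219, minus strand: tcatgcggccaccgccggCCTTTTCCCCTg
Rps18, chr17:33955646-33955675, minus strand: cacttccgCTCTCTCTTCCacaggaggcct
Rps6, chr4:86857348-86857377, minus strand: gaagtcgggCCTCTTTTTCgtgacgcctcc
Rpl15, chr14:18270967-18270996, minus strand: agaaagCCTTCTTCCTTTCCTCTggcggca
Rpl23, chr11:97782420-97782449, minus strand: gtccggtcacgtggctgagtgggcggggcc
In Rps18, Rps6 and Rpl15 the run lay over the annotated start, in Rplp0 and Rps12 it began 12 and 9 bases into the transcript, and Rpl23 had none in this stretch. A match is a description of these letters, and annotated starts can lie several bases from the base that a cell uses.

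The bulk libraries held between 157537 and 453005 counts, of which mitochondrial genes took 12.5% to 16.1%, and shares below leave those rows out. Of 2304 wells, 1109 held at least 1000 transcripts and were kept, with a median of 1676 to 3267 transcripts per plate, and 0 wells had the same values in 2 plates. In knockin replicate 1, 44 of the 71 kept wells took 10% or more of their transcripts from Mir1950 and Kcnq1ot1, the genes used to mark damaged wells. The bulk EGFP- library of mouse 1 stood apart from that of mouse 2 in the genes described here. Krt5 and Krt14 together held between 124 and 258 of every 10000 counts in each bulk library.

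In bulk, ribosomal protein genes held a like share of the counts in viable and EGFP+ cells, and the 2 mice differed in EGFP- cells. Viable cells gave 11.8% in both mice, EGFP+ cells 12.4% and 11.6%, and EGFP- cells 15.9% in mouse 1 and 9.88% in mouse 2. The mean was 11.8% ± 0.0186 in viable, 11.99% ± 0.606 in EGFP+ and 12.9% ± 4.26 in EGFP- cells (SD, n = 2). Exact binomial intervals at 95% reached at most 0.197 points to either side and cover counting error only, not the spread between mice. EGFP+ minus EGFP- was therefore -3.49 points in mouse 1 and 1.67 points in mouse 2, and EGFP- minus viable was 4.14 and -1.91 points. EGFP+ minus viable was 0.65 and -0.23 points. The 6 bulk libraries came from 2 mice, with all 3 populations from each, and each plate from a further mouse. With 2 mice no order of the populations can be read from these shares. In bulk samples, fewer cells of a type and less RNA per cell cannot be told apart.

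**Figure D1:**
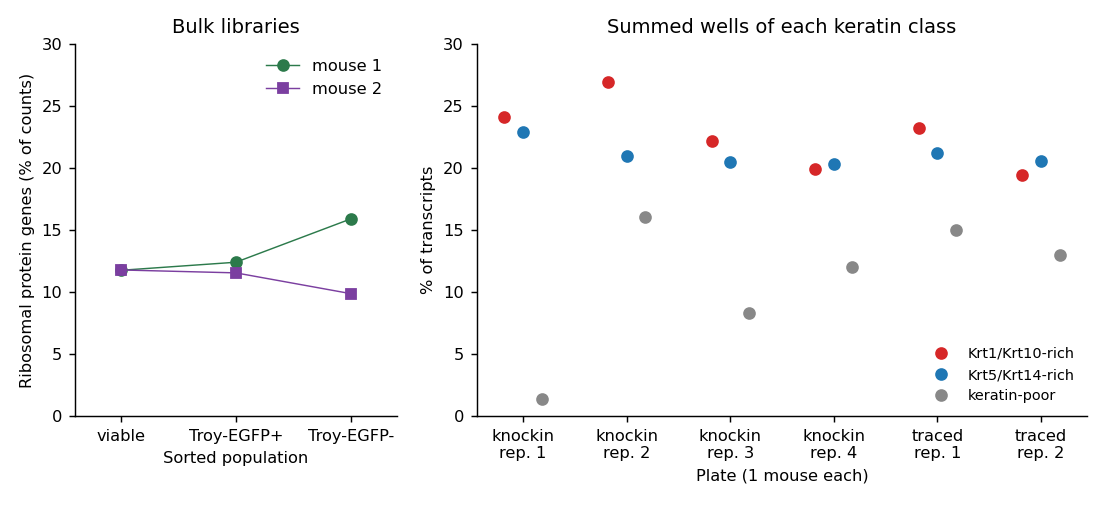
Share of ribosomal protein genes in % of counts in the 6 bulk libraries (left, points joined by mouse) and in % of transcripts in the summed wells of each keratin class and plate (right). The bulk populations differ in direction between the mice, from 15.9% to 9.88% in EGFP- cells, and the Krt5/Krt14-rich sums of 5 plates lie between 20.3% and 21.2%.

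The most abundant members in bulk were mostly large subunit genes. Levels are in CPM, a gene's counts or transcripts scaled to a total of 1000000, and since they come from transcript ends they do not scale with gene length. Scaled CPM, used in the comparisons, also carry the TMM factor of edgeR. Rpl4 led with a mean of 14233 CPM, between 12048 and 20500 per library, and alone held 11.5% of all member counts. Rpl23 followed with a mean of 5241, then Rpl41 with 5059, Rps7 with 4316, Rpl23a with 3844, Rpl3 with 3766, Rpl15 with 3060, Rpl19 with 2908 and Rpl10 with 2589 CPM. Of those named, Rps7 was the only one of the small subunit. The counts of all 60S genes were between 1.76 and 1.99 times those of all 40S genes, highest in the EGFP- library of mouse 1.

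No member passed the test in any bulk comparison. Of the 79 members with a bulk row, 70 held enough counts to be tested, and the quasi-likelihood test of edgeR, adjusted by Benjamini-Hochberg over 4605 genes, called 0 of 70 between EGFP+ and EGFP- cells, where it called 7.01% of all genes (3.0% higher and 4.02% lower). It called 0 of 70 between EGFP+ and viable cells, where it called 0.478% of all genes (0.0651% higher and 0.413% lower). It called 0 of 70 between EGFP- and viable cells, where it called 1.82% of all genes (0.934% higher and 0.89% lower). Members with an unadjusted p under 0.05 in edgeR numbered 5, 2 and 2 of 70, beside 928, 307 and 619 of all 4605 genes. DESeq2 also called 0 members in each. The median log2 fold change of the members was -0.19 for EGFP+ against EGFP-, 0.08 for EGFP+ against viable and 0.22 for EGFP- against viable cells, beside -0.04, 0.01 and 0.03 over all genes tested. The 3 comparisons share libraries, so they are not separate evidence.

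Rpl17 and Rps18 were the only members at an unadjusted p under 0.05 in both comparisons of EGFP+ cells, and Rpl6, Rpl23a and Rpl38 were the others between EGFP+ and EGFP- cells. Rpl17, a large subunit protein, stood at 818 and 714 scaled CPM in EGFP+ cells, at 416 and 469 in viable cells and at 338 and 493 in EGFP- cells. Both EGFP+ libraries lay above the other 4. The log2 fold change was 0.87 ± 0.29 (SE) against EGFP- cells, with an adjusted p of 0.0801 from edgeR, and 0.79 ± 0.28 against viable cells, with an adjusted p of 0.426. Rps18, a small subunit protein, went the other way, with 1547 and 1841 in EGFP+ cells, 2633 and 3252 in viable cells and 4078 and 2227 in EGFP- cells. Both EGFP+ libraries lay below the other 4. Such separation was common: EGFP+ and EGFP- libraries did not overlap for 48% of all genes tested and 12 of 70 members. EGFP+ and viable libraries did not overlap for 40% of all genes tested and 28 of 70 members. Its log2 fold change was -0.89 ± 0.34 against EGFP- cells (adjusted p = 0.13) and -0.80 ± 0.34 against viable cells (adjusted p = 0.632) in edgeR. Of the stalk genes, Rplp0 stood at 1452 and 1451 scaled CPM in viable, 1503 and 1613 in EGFP+ and 1487 and 1186 in EGFP- cells, and Rplp1 at 1953 and 1790, 2225 and 2157, and 3312 and 1769. Neither was near the threshold (adjusted p = 0.741 and 0.785 between EGFP+ and EGFP- cells in edgeR). With the mouse as a block the log2 fold change of Rpl17 against EGFP- cells was 0.89 with an adjusted p of 0.0352, and this was the 1 member called.

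The mouse difference in EGFP- cells ran through most of the family, and the bulk counts of calls moved with the EGFP- library left out. In EGFP- cells 61 of 70 members were higher in mouse 1, beside 49.4% of all genes, with a median log2 ratio of 0.80. Of the members 27 differed more than 2-fold, and the share of all genes that did was not counted. In viable cells the median was 0.12 and in EGFP+ cells 0.10, with 1 member over 2-fold in each, and over all genes the median was between -0.02 and 0.00. Rpl6, a large subunit protein, stood at 4390 scaled CPM in the EGFP- library of mouse 1 and 1304 in that of mouse 2, beside 1316 and 1289 in viable cells. Rps20, a small subunit protein, stood at 2039 and 590 in EGFP- cells and at 811 and 609 in viable cells. Rpsa, the laminin receptor protein of the small subunit, went the other way, with 748 in mouse 1 and 2518 in mouse 2, beside 2586 and 2389 in viable cells. Without the EGFP- library of mouse 2, edgeR called 29 of 72 members tested between EGFP+ and EGFP- cells, 25 of them lower in EGFP+ cells, where it called 727 of 5594 genes. Between EGFP- and viable cells it called 24, of which 23 were higher, and 8.21% of all genes. Without that of mouse 1 it called 4 of 71, all higher in EGFP+ cells (Rpl15, Rps13, Rps27a and Rps4x), with 7.7% of all genes, and 1, lower in EGFP- cells (Rps27a), with 3.39% of all genes. Each of these fits has a single EGFP- library, which is assumed to vary like the other groups. Without either of these libraries Rpl17 and Rps18 were the 2 called between EGFP+ and viable cells, with 1.98% of all genes without that of mouse 1 and 2.13% without that of mouse 2. The same libraries differed in the upper hair follicle list (72.1 and 37.0 of every 10000 counts in mice 1 and 2), the damaged-well list (132 and 199) and the Langerhans cell list (11.0 and 8.98), and the part of these in the difference was not tested.

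For the single cells, each kept well was placed by 4 keratins. A well with at least 0.5% of its transcripts from Krt5, Krt14, Krt1 and Krt10 was Krt1/Krt10-rich where that pair exceeded the other and Krt5/Krt14-rich otherwise, which gave 120 and 717 wells, and 272 wells were keratin-poor. These are ranges of measured levels and not cell types: 17 and 23 wells lay within 2-fold of the cut. Sums over the wells of a class in a plate were compared within plates, since both classes came from 1 mouse. Knockin replicate 1 had 4 Krt1/Krt10-rich wells, under the minimum of 5, and was left out.

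The share of ribosomal protein transcripts did not separate the keratin classes beyond the spread between plates. Krt1/Krt10-rich against Krt5/Krt14-rich wells held 26.9% against 21.0% in knockin replicate 2, 22.2% against 20.5% in knockin replicate 3, 19.9% against 20.3% in knockin replicate 4, 23.2% against 21.2% in traced replicate 1 and 19.5% against 20.6% in traced replicate 2. The Krt1/Krt10-rich share was higher in 3 plates and lower in 2. The difference averaged 1.63 ± 2.75 points (SD, n = 5 plates). In traced replicate 2 a single Krt1/Krt10-rich well held 50743 transcripts at a share of 15.0%, and 24.0 of these were from the lower hair follicle list used below. Without it the mean difference was 2.35 points, higher in 4 of 5 plates. Taken as the median well, the difference was 3.45 ± 3.64 points and higher in 4 of 5 plates. With the keratins at 2% or more of a well it was -0.56 points over 4 plates.

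Within the family, both stalk genes were higher in Krt1/Krt10-rich wells. edgeR with the plate as a block tested 78 members and called 4 (5.13%), all higher, where 7.9% of the 5686 genes tested were called higher and 19.0% in either direction. Whether the members' share of calls differs from that of genes at large was not tested. Their median log2 fold change was 0.05, beside -0.08 over all genes, and all members lay between -0.36 and 0.55.

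Rplp0 stood at 2656, 3558 and 3958 scaled CPM in the Krt5/Krt14-rich sums of knockin replicates 2, 3 and 4 and at 1521 and 1430 in those of traced replicates 1 and 2. In the Krt1/Krt10-rich sums of the same plates it stood at 4076, 5146, 5652, 2262 and 2082 scaled CPM. It was higher in 5 of 5 plates, by a log2 fold change of 0.55 ± 0.11 (SE; adjusted p = 4.75e-05 in edgeR). Rplp1 stood at 6092, 3712 and 5617 and at 4631 and 4655 scaled CPM in the Krt5/Krt14-rich sums, and at 10290, 5897, 7393, 6643 and 5720 in the Krt1/Krt10-rich sums, in the same order of plates. It was also higher in 5 of 5 plates, by 0.53 ± 0.10 (adjusted p = 2.71e-05). The levels of the plates overlapped between the classes, and with no plate block neither gene was called (adjusted p = 0.499 and 0.224). Rps29, a small subunit protein, stood at 6458, 566, 1240, 2280 and 2175 scaled CPM in Krt5/Krt14-rich and at 8177, 929, 1348, 2914 and 2393 in Krt1/Krt10-rich sums (0.33 ± 0.11, adjusted p = 0.033). Rps12, also of the small subunit, stood at 7702, 7879, 8349, 5349 and 4835 and at 10340, 9709, 8445, 6936 and 5418 (0.26 ± 0.09, adjusted p = 0.0477). Both were higher in 5 of 5 plates, Rps12 by little in knockin replicate 4. In 21 alternative settings Rps12 was called in 6 and Rps29 in 9, beside 17 for Rplp0 and 17 for Rplp1. Rpsa was not called, at 0.19 ± 0.12 (adjusted p = 0.312).

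These calls depended on which wells were taken. The lower hair follicle list used below led 259 of the 717 Krt5/Krt14-rich wells and 2 of the 120 Krt1/Krt10-rich wells. The part of this imbalance in the calls was not tested. When wells with 2 or more transcripts of the hair follicle lists were left out, 0 members were called, with Rplp0 at 0.34 (adjusted p = 0.0555) and Rplp1 at 0.32 (adjusted p = 0.0714). With keratins at 2% or more 0 were called, with Rplp0 at 0.31 and Rplp1 at 0.24. In the class effect, 0 of 78 members differed between traced and knockin plates in an edgeR interaction term (0 at an unadjusted p under 0.05), with 14 of 5686 genes called.

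**Figure D2:**
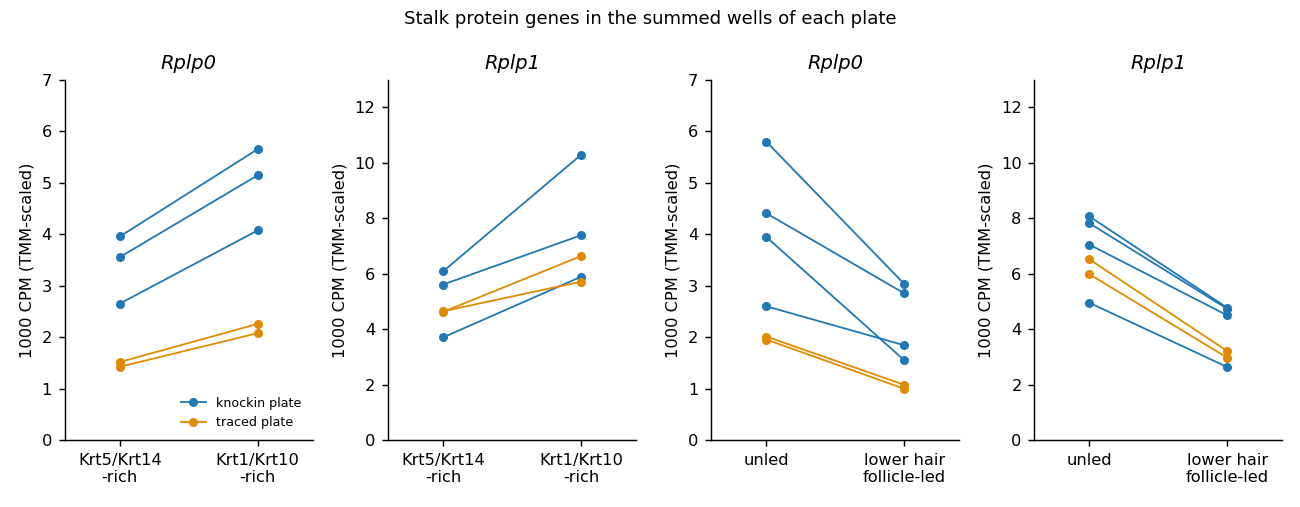
TMM-scaled levels of Rplp0 and Rplp1 (y axis, in units of 1000 CPM) in the summed wells of each plate, joined within a plate, for the keratin classes (left pair of panels, 5 plates) and for unled and lower hair follicle-led wells (right pair, 6 plates). Both genes rise toward Krt1/Krt10-rich wells in 5 of 5 plates and fall toward lower hair follicle-led wells in 6 of 6.

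Of the Krt5/Krt14-rich wells, 259 were led by a list of lower hair follicle genes (Cd34, Postn, Aspn, Lhx2, Lgr5) and 313 by no list. A well was led by the marker list with the most transcripts where that list had at least 3, and this comparison was added after the data had been seen. The list genes chose the wells and are no result here. Of the 259 wells, 34 held fewer than 6 list transcripts, and of the 313 unled wells 262 held 0 of them and 11 at least 2.

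Ribosomal protein transcripts took a smaller share of lower hair follicle-led wells in every plate. The share was 18.1% ± 2.01 in lower hair follicle-led and 23.3% ± 0.84 in unled wells (SD, n = 6 plates), a difference of -5.23 ± 2.65 points. It was lower by 7.62 and 7.52 points in traced replicates 1 and 2, as 16.5% against 24.1% and 16.0% against 23.5%. In knockin replicates 2, 3 and 4 the shares were 17.8% against 24.3%, 18.5% against 22.3% and 17.9% against 23.1%. Knockin replicate 1, with 8 and 11 wells, gave the smallest difference, 21.7% against 22.4%, although its median wells stood at 16.8% and 21.9%. Exact binomial intervals at 95% for these sums reached at most 0.551 points to either side and cover counting error only.

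**Figure D3:**
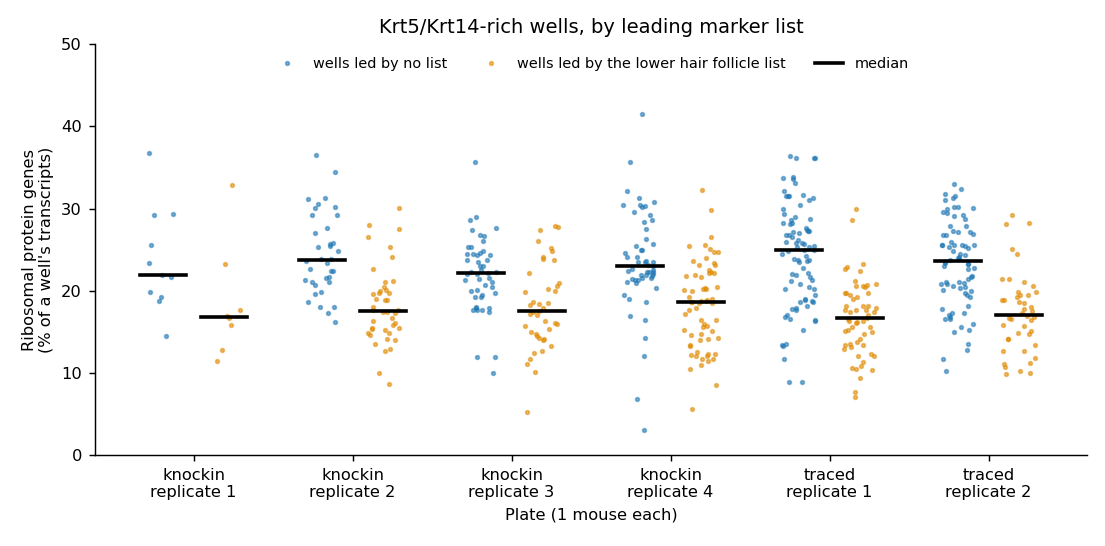
Share of ribosomal protein genes in % of each Krt5/Krt14-rich well's transcripts, by plate, for wells led by no list (blue) and by the lower hair follicle list (orange), with medians as black bars. The 2 kinds of wells overlap in each plate, and the median of lower hair follicle-led wells is the lower one in all 6, for example 16.7% against 25.01% in traced replicate 1.

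The fall ran through both subunits. edgeR with the plate as a block called 55 of the 76 members tested lower and 0 higher (72.4%), where 10.1% of the 4971 genes tested were called lower and 10.9% higher. The members included 23 of 31 of the small and 32 of 45 of the large subunit. Their median log2 fold change was -0.44, with quartiles of -0.59 and -0.33, beside -0.01 over all genes tested. All but Rpl7l1, at 0.12 ± 0.34, lay below 0, and 46 members were lower in 6 of 6 plates, which was not counted over all genes. Without TMM the count was 45 and the median -0.34, and with TMM computed on the other genes 56 and -0.46. The shares of all genes called with these scalings are not reported here.

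The stalk genes led this fall too. Rplp0 ranged from 1003 to 3040 scaled CPM over the 6 lower hair follicle-led sums, with a median of 1702, and from 1958 to 5799 over the unled sums, with a median of 3277. It was lower in 6 of 6 plates, by 0.89 ± 0.13 on the log2 scale (log2 fold change -0.89, adjusted p = 2.98e-10 in edgeR). Rplp1 ranged from 2643 to 4777 with a median of 3861 in lower hair follicle-led sums, and from 4958 to 8072 with a median of 6790 in unled sums, so the groups did not overlap (log2 fold change -0.85 ± 0.12, adjusted p = 4.56e-11). Rps7 and Rpl23 were the other members without overlap. These 3 of 76 members were no larger a share than the 5.63% of all genes tested that did not overlap. Rps7 reached at most 6242 scaled CPM in lower hair follicle-led sums and at least 6579 in unled sums, and Rpl23 at most 6054 and at least 6120.

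The next largest falls were in genes of both subunits. Rps18 had a median of 2801 scaled CPM in lower hair follicle-led and 4951 in unled sums (log2 fold change -0.70 ± 0.12, adjusted p = 1.74e-07). Rpsa had medians of 1399 and 2360 (-0.69 ± 0.13, adjusted p = 4.60e-06). Rpl36al and Rpl32 fell by similar amounts, at -0.79 ± 0.16 (adjusted p = 1.79e-05) and -0.79 ± 0.18 (adjusted p = 2.05e-04). Each of these 4 genes was lower in 6 of 6 plates, and Rpl32 was a weakly counted gene with a median of 325 scaled CPM in lower hair follicle-led and 642 in unled sums. The 21 members not called included Rpl17, Rps14, Rpl31, Rpl35a and Rps25. Rps6, the small subunit protein phosphorylated below mTORC1, was called at -0.65 ± 0.12 (adjusted p = 1.57e-06).

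**Figure D4:**
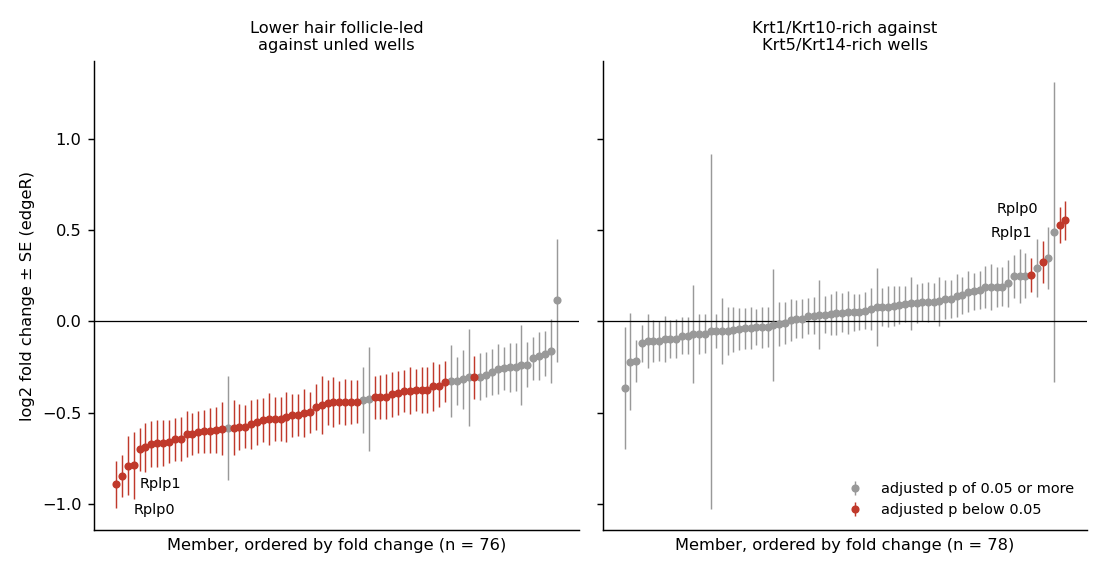
Log2 fold change of each member tested, with its SE from edgeR, ordered by value, in lower hair follicle-led against unled wells (left, 76 members) and Krt1/Krt10-rich against Krt5/Krt14-rich wells (right, 78 members). On the left 55 members are called and the whole run but 1 lies below 0, and on the right 4 are called, with Rplp0 and Rplp1 the highest of the 78.

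The median log2 fold change of the members was -0.33 with only the knockin plates and -0.64 with only the traced plates. No single member passed a test of that difference: 0 of 76 members were called in an edgeR interaction of traced against knockin plates, where 10 had an unadjusted p under 0.05 and 6 of 4971 genes were called. With the plate block left out 1 member was called. Lower hair follicle-led wells were a little shallower, with a median of 2654 against 3263 transcripts, and with wells of at least 2000 transcripts 62 members were called. The damaged-well list was higher in lower hair follicle-led wells in all 6 plates, from 74.5 against 68.5 of every 10000 transcripts in knockin replicate 1 to 404 against 276 in knockin replicate 4. In the traced plates the list was at 16.4 against 7.48 and 10.2 against 8.61, and there the share differences were -7.62 and -7.52 points. The part of this list in the fall was not tested. All keratin genes together held 2.24% to 4.38% of lower hair follicle-led and 2.91% to 4.77% of unled sums, and without keratin genes 54 members were called. For the fits with other wells, blocks or genes, the shares of all genes called are not reported here.

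The fall was also counted by start sequence. Of members with a pyrimidine run at the annotated start, 15 of 21 tested were called lower, with a median log2 fold change of -0.50, and of members with a window and no such run 28 of 36, with a median of -0.46. The leading gene, Rplp0, has its run inside the transcript, as printed above. Rplp1 and Rps29 had no window and were not placed.

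Other lists of translation genes outside the symbol rule were counted in lower hair follicle-led wells, where 10.1% of all genes tested were called lower. Fau, whose product is a small subunit protein fused to a ubiquitin-like one, was called lower at -0.42 ± 0.14 (adjusted p = 0.0153 in edgeR), in 4 of 6 plates. Of 6 elongation factor genes, 5 were called lower and 0 higher, with a median of -0.60: Eef1a1, which brings transfer RNA to the ribosome, was at -0.74 ± 0.12, Eef2, which moves the ribosome along the mRNA, at -0.59 ± 0.13, and Eef1b2, Eef1g and Eif5a also passed. Eef1d was not called, at 0.18 ± 0.20. Of 10 other mRNAs known to start with a pyrimidine run, 8 were called lower, with a median of -0.58, among them Gnb2l1, a scaffold protein on the small subunit, at -0.86 ± 0.13, Pabpc1, the poly(A)-binding protein, at -0.77 ± 0.14, and Tpt1, at -0.35 ± 0.11. Eif3e, Eif3f, Hnrnpa1, Naca and Npm1 were the other 5.

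Of 11 assembly genes tested, 4 were called lower: Fbl, which methylates ribosomal RNA, at -0.75 ± 0.27, Ncl (nucleolin) at -0.57 ± 0.17, Nop56 at -1.19 ± 0.34 and Npm1 at -0.56 ± 0.15, while their median was -0.56. Of 45 mitochondrial ribosomal protein genes tested, 2 were called lower, Mrpl23 and Mrpl4, with a median of -0.29, beside 10.1% of all genes called lower. The mitochondrial ribosomal protein genes stood at levels with wider errors (SE of 0.25 to 0.67). Whether the lists differ from each other or from all genes was not tested.

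In Krt1/Krt10-rich wells 3 genes of these lists were called, all among the 14 assembly genes tested, in a comparison that called 19.0% of all genes. Ncl and Npm1 were lower, at -0.70 ± 0.16 (adjusted p = 6.62e-04) and -0.43 ± 0.14 (adjusted p = 0.0187), each in 5 of 5 plates, and Nhp2, a part of the machinery that modifies ribosomal RNA, was higher at 1.22 ± 0.24 (adjusted p = 8.55e-05) in 5 of 5. Npm1 is also on the pyrimidine-start list. Of the elongation factors and 61 mitochondrial ribosomal protein genes 0 were called, and Fau was not. In the bulk comparisons 0 genes of any of these lists were called.

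Most of the paralog members named here were rare beside the genes they resemble, and Rpl36al was not. Rps27l had a bulk mean of 184 CPM. Rpl36al stood at 178 and its counterpart Rpl36a at 294 CPM, and in single cells they held 0.341% and 0.330% of all member transcripts. Both fell in lower hair follicle-led wells, Rpl36a by 0.46 on the log2 scale with an adjusted p of 0.0246. Rpl7l1, which acts in ribosome assembly, had a bulk mean of 34.4 beside 1041 for Rpl7, and Rps19bp1 a mean of 19.8. Rpl10l and Rpl39l had bulk rows for mouse 1 only, with 5 counts of Rpl10l in viable cells and 1 count of Rpl39l in viable and in EGFP+ cells, while Rpl10 and Rpl39 had bulk means of 2589 and 899 CPM. Rpl22l1 had a row in the 6 plates and none in bulk, and made up 0.00708% of member transcripts in single cells, beside 1.01% for Rpl22, and Rps4l made up 0.00769%, beside 1.46% for Rps4x. Rpl30 and Rpl34, core members of the large subunit, each had a row in 4 plates and none in bulk. Where they had a row, they held at most 26.0 and 3.00 transcripts in any Krt5/Krt14-rich sum, and neither was tested in lower hair follicle-led wells.

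Levels of single members depended on the table that listed them, and the pooled share less so. The tables of knockin replicates 1 and 2 and of the traced mice listed Rpl30, Rps4l and Rpl37rt and no mitochondrial genes, and those of knockin replicates 3 and 4 and of the bulk listed Rps4y2 in their place. In Krt5/Krt14-rich wells, 8 of 74 members with a row in every table and at least 100 CPM somewhere differed more than 3-fold between the means of knockin replicates 3 and 4 and of knockin replicates 1 and 2. Rps4x stood at 446 against 4303 CPM, Rps29 at 777 against 5965 and Rpl4 at 1201 against 8362, and Rpl32, Rps25, Rpl17 and Rpl37 were lower too. Rpl14 was the 1 that was higher, at 2213 against 638. In traced wells 4 members stood more than 3-fold below knockin replicates 1 and 2, namely Rpl37, Rps23, Rps15a and Rpl14. The pooled share was nevertheless 20.3% to 21.2% in the 5 plates with both classes and 22.9% in knockin replicate 1.

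**Figure D5:**
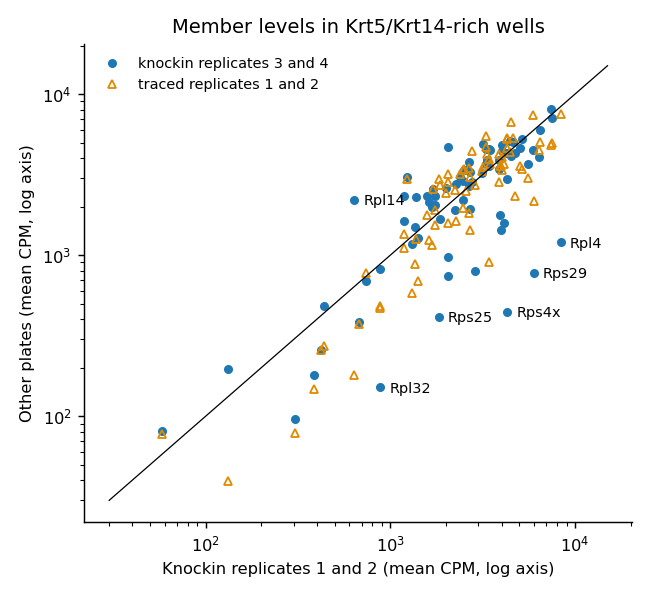
Mean level in CPM (both axes logarithmic) of members with a row in all tables in Krt5/Krt14-rich wells, with knockin replicates 1 and 2 on the x axis and the other plates on the y axis; the line marks equal levels. Most members lie near the line, and Rps4x, Rps29, Rpl4, Rpl32 and Rps25 lie far below it in knockin replicates 3 and 4 while Rpl14 lies above.

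Many ribosomal protein genes have processed pseudogenes with near-identical sequence, and how reads that match several copies were counted is not given in the sources used here. The level of a single member is therefore uncertain across tables, and comparisons were made within a plate or within the bulk table. In bulk, where Rpl4 led, Rpl37 was at 3.71 CPM and Rpl32 at 35.8, beside 306 and 884 in Krt5/Krt14-rich wells of knockin replicates 1 and 2.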

How the data were processed

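The members and all gene lists were chosen with earlier results of these data known. For bulk, the authors deposited whole-number read counts per gene without normalization. For single cells (SORT-seq, a plate form of CEL-Seq2), the values that the authors deposited are estimated counts of transcripts in each well, made from molecular barcodes and corrected for barcodes drawn more than once. They turned back into whole barcodes of a pool of 4096 (6 bases) to within 3.57e-09, although the labels name a shorter barcode. The submitters' notes name BWA 0.6.2-r126 and mm10, and also GRCm38 for the traced and hg19 for the bulk libraries. ERCC spike-in and mitochondrial rows were left out, and rows were joined between tables by symbol. Depth was 157537 to 453005 counts in bulk and at least 1000 transcripts in a well.

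Bulk counts and rounded sums of wells per plate and class were scaled by TMM, filtered by filterByExpr and put through the quasi-likelihood test of edgeR 4.0.16 (R 4.3.3), with a threshold of 0.05 on the p-value adjusted over all genes tested. Bulk fits used all 6 libraries with no block, and plate fits used the plate as a block. The bulk populations of a number come from 1 mouse; deviations of the same mouse correlated by 0.0634 between viable and EGFP+, 0.0765 between viable and EGFP- and 0.038 between EGFP+ and EGFP- cells. DESeq2 1.42.0, other scalings, filters, well minimums and keratin cuts, and leaving out each library or plate were alternatives. The test was run on simulated data with known changes before use. Shares over the members got no p-value. Named genes were, apart from results not reported here, the 10 most abundant in bulk, the 5 largest rises and falls among called members that moved the same way in every mouse, the stalk genes, Rpsa, the paralogs with the genes they resemble, and Rps19bp1; Rpl17, Rps18, Rpl6, Rps20 and others in bulk, Rps6, examples of members not called, and the members that differed between tables, were named after their values were seen. Doublets were not called. Sequences and starts are from RefSeq GRCm38.p6.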

Additional observations from a re-analysis of the deposited data

Results flagged for a closer look

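Pseudogene rows of the family, which no comparison used, held transcripts in all 6 plates: 19.0, 202, 242 and 286 in knockin replicates 1 to 4 and 49.0 and 75.0 in traced replicates 1 and 2, all above the 3 counts that a count of 0 allows. They made up between 0.0275% and 0.221% of the transcripts of members and pseudogenes together, and their part in the members' levels was not tested. Dixon's test found 0 outlying plates in 5 groups of 4, where chance flags about 5% of groups.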

How the results depend on the processing

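Bulk calls of members moved from 0 when 1 library was left out: they ranged from 0 to 29 for EGFP+ against EGFP-, 0 to 2 for EGFP+ against viable and 0 to 24 for EGFP- against viable cells, with the extremes set by the EGFP- libraries. Only the 2 populations compared gave 2 for EGFP+ against viable cells (Rpl17 and Rps18). Without EGFP- replicate 1, Rpl6 (-0.0013) and Rps20 (-0.26) reversed in EGFP- against viable cells, and without EGFP- replicate 2 they were 1.73 and 1.51. The share differences ranged over the mice from -3.49 to 1.67, -0.23 to 0.65 and -1.91 to 4.14 points in the same order of comparisons. The mouse as replicate block gave 1 member between EGFP+ and EGFP- cells and changed no other bulk call.

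Of the 4 members called in Krt1/Krt10-rich wells, 2 (Rplp0 and Rplp1) remained with one keratin pair at least 3 times the other, only the knockin plates, no minimum of wells (an alternative added after seeing the data), DESeq2 or no filter on low counts, and 2 to 4 with 1 plate left out. None remained with keratins at 2% or more, hair follicle wells left out, only the traced plates or no plate as replicate block (0 in each). The 55 lower members of the comparison added after seeing the data became 33 with keratins at 2% or more, 32 with only the knockin plates and 1 with no replicate block, and 38 to 60 with 1 plate left out. DESeq2 gave 52 there, with a median of 0.16 over the 8303 genes it tested. All other alternatives gave counts within 1.5 times these. The shares of all genes called in these alternatives are not reported here, so these counts do not tell a change in the members from one over all genes. The cause of these changes was not tested. Depth limits bulk to abundant genes, and 14 members had too few counts or no row there.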

Other observations

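Wells of other kinds held smaller shares of ribosomal protein transcripts. These are medians over wells, given as descriptions, and the wells were grouped by leading marker list after the data had been seen. Among keratin-poor wells, those led by the T cell list (Cd3g, Cd3d, Cd3e, Cd7, Trdc) had a median of 7.08% over 60 wells, with plate medians from 6.43% to 10.8% in 5 plates. Those led by the Langerhans cell list (Cd207, Cd74, H2-Ab1, H2-Aa, Csf1r) had a median of 10.8% over 39 wells of 3 plates. Keratin-poor wells led by the upper hair follicle list (Krt79, Cst6, Defb6, Gata6) had 14.7% over 76 wells. Their plate medians ran from 8.43% to 20.4%. The 79 damaged keratin-poor wells had 1.19%, and 44 of them were from knockin replicate 1, at a median of 0.723%. Those of knockin replicates 2, 3 and 4 had medians of 4.54%, 1.99% and 5.50%. Damaged wells of the keratin classes, 18 Krt5/Krt14-rich and 3 Krt1/Krt10-rich, had 11.1% and 5.01%. The 12 keratin-poor wells led by no list had 21.4%.

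In Krt5/Krt14-rich wells the Langerhans cell list led 40 wells with a median of 23.1%, beside 23.5% in unled wells. Doublets were not called, so wells that hold keratins and Langerhans cell genes may hold 2 cells. Upper hair follicle-led wells of this class had 20.1% over 85 wells, between unled wells and lower hair follicle-led wells at 17.5%. Median depths differed among these groups, at 1766 transcripts in T cell-led, 3052 in keratin-poor Langerhans cell-led and 3736 in Krt5/Krt14-rich upper hair follicle-led wells. The part of depth was not tested. Within a plate and class of at least 20 wells, Spearman correlations of the share with a well's transcripts ran from -0.529 to 0.555, with no common direction.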
